A study of Drosophila melanogaster with 3 samples.

Results

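The X chromosome peaks are the 832 of 4410 thresholded CG8319 peaks that lie on the Drosophila melanogaster X chromosome in the genome build dm6. They were chosen by their chromosome alone, without any measured value, and the 3578 peaks on the other chromosomes served as the comparison. The data were peak lists from chromatin immunoprecipitation with sequencing (ChIP-seq), in which an anti-GFP antibody recovered a CG8319-eGFP fusion protein together with the DNA near it. All 3 samples were whole prepupae of the strain CG8319-GFP, 1 transgenic line with an insertion that expresses CG8319 with GFP at its C terminus. They form 1 group of biological replicates 1, 2 and 3, with male and female animals pooled and with an age given as unknown. The promoter that drives the insertion and the proportion of each sex were not stated in the sources used, and no untagged animals were analysed here. Peak lists hold no expression values, so the labelled stage could not be checked against marker genes.

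CG8319 encodes a zinc finger protein, a class of proteins that often bind DNA in a sequence-dependent way. Male flies carry a single X and females carry a pair, and in males the MSL complex, guided by the roX RNAs, raises transcription along the X. The prepupa is the stage at which pulses of the steroid hormone ecdysone begin to turn the larva into the adult. Because the sexes were pooled, the X was present in fewer copies than the autosomes, and its copy number cannot be told apart from its binding in peak numbers or signal compared between chromosomes.

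Each peak has a summit, its point of highest enrichment, and a signal, the value the authors' peak caller gave it on a scale that holds only within 1 list. Over the X peaks the signal ran from 87.3 to 1769 with a median of 146, and the peaks were 102 to 744 bp wide with a median of 410.0 bp. Read depth is unknown, so no interval that needs it is given. The 95% Wilson intervals below cover counting over peaks only. The p-values compare places in the genome and not animals, and the replicates, which share 1 line, are given beside them.

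The sequence under the strongest X peaks was mostly A and T. The stretch of 50 bp to either side of the summit is printed for 8 of the 25 strongest X peaks, in the plus strand of the RefSeq genome with dm6 coordinates, because the sequence results below rest on such windows. Capitals mark any of the words TTAAAA or AAAATA or AAATAT or ATTTTA or ATTTAA on either strand, the 5 words that rose most at summits of the other chromosomes. The first 3 windows lie in an intron of CG32772, in an exon of lncRNA:Vinr, a long non-coding RNA beside lncRNA:CR44619, and in an intron of CG3726. The next 2 lie in introns of ph-p, a Polycomb group gene, and norpA, the phospholipase C gene of vision. The Gapdh2 window lies just upstream of that glycolysis gene, and the elav window upstream of a gene for a neuronal RNA-binding protein. The CG8034 window is shown as a contrast, because it holds none of the 5 words and the lowest share of A and T, 50.5%, of the 23 windows of this set that lie outside UTRs.
CG32772, chrX:4910340-4910440: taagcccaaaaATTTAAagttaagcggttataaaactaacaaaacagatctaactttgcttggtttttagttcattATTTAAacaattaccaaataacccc
lncRNA:CR44619, chrX:12751280-12751380: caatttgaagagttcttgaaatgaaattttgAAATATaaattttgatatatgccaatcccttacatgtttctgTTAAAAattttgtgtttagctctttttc
CG3726, chrX:5918868-5918968: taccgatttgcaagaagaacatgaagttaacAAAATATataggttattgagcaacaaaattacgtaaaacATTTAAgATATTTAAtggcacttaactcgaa
ph-p, chrX:2137261-2137361: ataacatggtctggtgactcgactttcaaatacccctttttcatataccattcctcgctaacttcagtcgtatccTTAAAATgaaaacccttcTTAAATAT
norpA, chrX:4324948-4325048: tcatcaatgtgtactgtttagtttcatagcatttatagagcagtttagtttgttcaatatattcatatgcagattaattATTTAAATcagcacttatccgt
Gapdh2, chrX:15867947-15868047: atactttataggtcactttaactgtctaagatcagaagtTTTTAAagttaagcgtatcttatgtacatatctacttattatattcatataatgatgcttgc
elav, chrX:523459-523559: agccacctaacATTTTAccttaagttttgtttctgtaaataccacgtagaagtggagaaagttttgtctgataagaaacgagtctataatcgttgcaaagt
CG8034, chrX:19296212-19296312: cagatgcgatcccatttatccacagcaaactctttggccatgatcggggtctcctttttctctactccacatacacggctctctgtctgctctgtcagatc
Of those 23 windows 17 held at least 1 of the 5 words and 6 held none, and their A and T content ran from 50.5% to 75.2% with a median of 70.3%. Over all X summits 66.0% of windows held at least 1 of the 5 words, against 43.7% of tiles of the same length over the whole X.

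The strongest X peak lay 20 bp upstream of the start site of Ugalt (FBgn0024994, X, 2703688 to 2704079, intergenic), which encodes a UDP-galactose transporter. Its signal was 1769 in the list from all replicates and 375, 875 and 526 in replicates 1, 2 and 3. It ranked 2 of all 4410 peaks, and 16 of the 100 strongest peaks lay on the X. Among the 25 strongest X peaks 18 lay in introns and 9 within 500 bp of a start site, and all 25 were among the 4410 highest-signal regions of every replicate.

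Most of the next strongest peaks lay inside genes and away from their start sites. The second lay in an intron of CG32772 (FBgn0052772, X, 4910110 to 4910663), 1288 bp from the start site, with a signal of 1248.5 overall and of 286, 577 and 385 in the replicates. Within CG3726 an intronic peak (FBgn0029824, X, 5918744 to 5919071) had a signal of 917 and replicate values of 222, 427 and 261. One in an intron of LPCAT (FBgn0052699, X, 9579125 to 9579469), an acyltransferase gene of phospholipid metabolism, had 892, with 186, 427 and 272 in the replicates. Replicate 2 had the highest value at each of these peaks, and its scale was higher throughout, with a median over X peaks of 75.3 against 35.3 and 41.4 in replicates 1 and 3.

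Peaks in genes for signalling and chromatin proteins followed. In ph-p (FBgn0004861), which encodes a subunit of the Polycomb repressive complex PRC1, a peak lay in an intron 456 bp upstream of an internal start site (X, 2137105 to 2137542). Its signal was 889 overall and 169, 465 and 290.0 in the replicates. A further ph-p peak lay in the 5′ UTR (X, 2137686 to 2138076) with 572. The norpA peak (FBgn0262738, X, 4324832 to 4325140) had a signal of 786 and replicate values of 170, 389 and 231. Tlk (FBgn0283657, X, 3742047 to 3742391), a Tousled-like kinase gene, had 775 in an intron, with 149, 440.0 and 191 in the replicates.

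Genes of sugar metabolism stood beside these. The peak of Gapdh2 (FBgn0001092, X, 15867813 to 15868155), the glycolytic enzyme glyceraldehyde-3-phosphate dehydrogenase, lay 148 bp upstream of a start site with a signal of 782 and replicate values of 189, 375 and 216. A peak in an intron of Zw (FBgn0004057, X, 19668473 to 19668745), which encodes glucose-6-phosphate dehydrogenase, had 683 overall and 140, 364 and 172 in replicates 1, 2 and 3. The start site nearest to it belongs to the antisense RNA asRNA:CR44512, 869 bp away. In an intron of arg, a peak of signal 540.0 lay 283 bp upstream of a start site of elav (FBgn0260400, X, 523348 to 523651). Its replicate values were 122, 259 and 153, and the non-coding RNA gene lncRNA:enrr starts at the same distance.

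**Figure D1:**
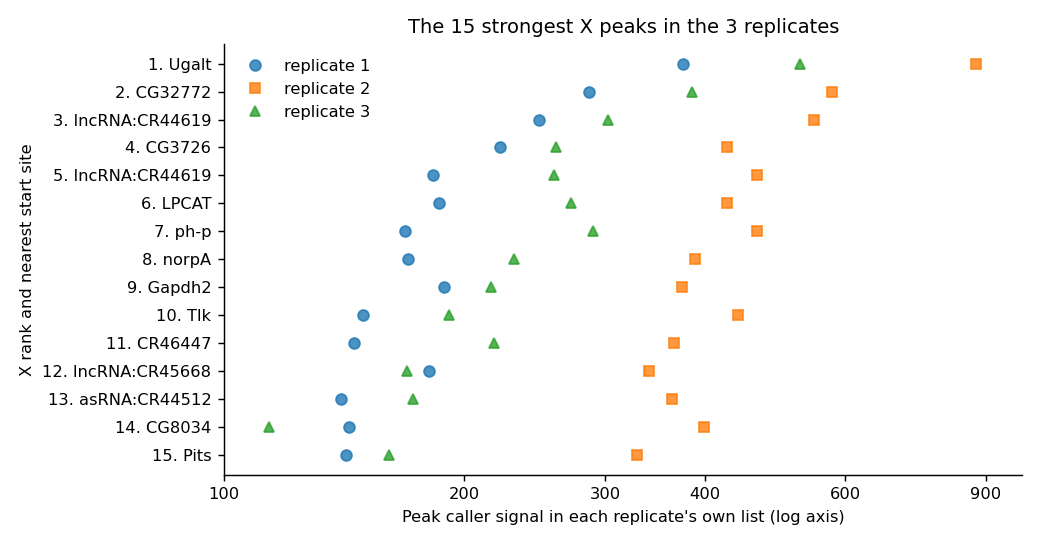
Peak caller signal (x axis, log scale, each replicate's own list) of the 15 strongest X peaks (y axis, by rank and gene of the nearest start site), with 1 point per replicate. Replicate 2 is highest at every peak, with Ugalt at 875, and replicate 3 falls below replicate 1 at lncRNA:CR45668 and CG8034.

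The other peaks among the 25 had signals from 537 to 908. lncRNA:CR44619 had further peaks of 908 and 635, lncRNA:CR45668 one of 696 and CG8034 peaks of 655 and 537. Pits, a gene for a partner of chromatin repressors, had one of 643 in an intron, and Ptpmeg2, a protein tyrosine phosphatase gene, had 600.4 and 544. In an intron of Hr4 (FBgn0264562), a nuclear receptor gene of the ecdysone response, lay a peak of 737 (X, 1951761 to 1952057). A peak of 590 (X, 21367632 to 21367988) lay 211 bp from a start site of bbx, an HMG-box gene, in introns of bbx and waw. One of 585 (X, 13640374 to 13640661) lay in an intron of NFAT, a transcription factor gene.

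The 5 strongest X peaks more than 5000 bp from any start site all lay in introns, and each was in the top regions of all 3 replicates. A peak of 584 in Raf (FBgn0003079, X, 2300573 to 2300854), the kinase gene downstream of Ras, lay 5255 bp from the start site with 134, 288 and 161 in the replicates. A further Hr4 peak (X, 1947614 to 1947917) had 578 and lay 5822 bp from the start site. Peaks of 457 in the splicing helicase gene Prp16 (FBgn0026713) and of 389 in the growth regulator gene Myc (FBgn0262656, X, 3381793 to 3382029) followed, the latter 8739 bp from the start site of Myc. The fifth had a signal of 360 in an intron of lncRNA:CR32773 and lay 18276 bp from CG12684.

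The share of peaks on the X was close to its share of the genome. The X held 18.9% of peaks (95% Wilson interval 17.7 to 20.05), 17.6% of the length of the chromosome arms, 16.6% of start sites and 15.7% of protein-coding genes. Its density of 35.3 peaks per Mb lay between 33.7 on 2L and 35.5 on 3L, above 32.1 on 3R and 29.5 on 2R, and above 9.64 on the small chromosome 4. Among the 4410 top regions of replicates 1, 2 and 3 the X held 765, 841 and 812, or 17.3%, 19.1% and 18.4% (mean 18.3% ± 0.870, SD, n = 3). Below the top regions it held 16.1%, 18.1% and 14.6% (16.3% ± 1.75, SD, n = 3). In 10 equal groups of the list ordered by signal the X share ran between 15.9% and 21.8% without a steady rise or fall.

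The signal of X peaks differed from that of the other peaks by less than the spread between replicates. The log2 ratio of the median signal of X peaks to that of other peaks was -0.09, 0.08 and -0.05 in replicates 1, 2 and 3, a mean of -0.02 ± 0.08 (SD, n = 3, exact sign-flip test, two-sided p = 0.75, where 0.25 is the smallest possible). The direction differed between replicates, with replicate 2 the only one above 0. At promoter peaks the mean was -0.07 ± 0.11 and at distal peaks 0.02 ± 0.09 (SD, n = 3). Of the X peaks 550 (66.1%) were in the top regions of all 3 replicates, 198 of exactly 2, 80 of 1 and 4 of none, and 66.1% of the other peaks were in all 3 (Fisher's exact test, adjusted p = 1). Regions of any rank in all 3 replicates overlapped 819 X peaks (98.4%). Some listed peaks overlap the same replicate region and took the same replicate values. At CG32772 (X, 4910110 to 4910663) summits with signals of 1248.5 and 175 did so. Each such summit counts as a separate peak here and in the clusters below. Spearman's rho of X peak signal between replicates was 0.723, 0.718 and 0.791 for the pairs 1 and 2, 1 and 3, and 2 and 3, over 828, 819 and 822 peaks that share their libraries, as a description.

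X peaks lay in introns more often and between genes less often than the other peaks. Introns held 548 X summits (65.9%, interval 62.6 to 69.0) against 51.03% elsewhere, a difference of 14.8 percentage points. Intergenic sequence held 196 (23.6%, interval 20.8 to 26.6) against 37.9%, a difference of -14.3 points. In promoters shared by divergent genes the summit lay upstream of start sites on both strands, each within 500 bp. These held 62 (7.45%, interval 5.86 to 9.44) against 12.9%, a difference of -5.40 points. These 3 of 11 classes tested (27.3%), of which 10 describe placement and 1 repeatability, passed two-sided Fisher's exact tests with Benjamini-Hochberg adjustment over the classes, with adjusted p of 3.785e-14, 1.674e-14 and 2.642e-05. The classes are not independent, since a summit in an intron cannot be intergenic and some promoter classes overlap. The tests also count each summit separately, while 32.7% of X summits lay in the clusters described below.

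The same direction held in each replicate's top regions. The intron share was 63.3%, 66.5% and 66.0% on the X and 49.7%, 50.6% and 50.75% elsewhere, a mean difference of 14.9 ± 1.17 points (SD, n = 3). The intergenic share was 21.7%, 22.1% and 23.5% on the X and 36.8%, 37.5% and 39.0% elsewhere (-15.3 ± 0.182). The divergent promoter share was 6.93%, 7.37% and 7.88% on the X and 12.6%, 12.8% and 13.3% elsewhere (-5.51 ± 0.137). In none of these classes did the X and other values overlap over the 3 replicates. The same was true of 3′ UTRs, coding exons and promoter summits upstream of the nearest start site, which did not pass.

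Introns also made up more of the X itself, but by a smaller margin. They covered 46.7% of X bases and 41.8% of other bases, a difference of 4.93 points, and intergenic sequence covered 25.4% and 31.6%, a difference of -6.20 points. The summit share divided by the base share was 1.41 on the X and 1.22 elsewhere for introns, and 0.927 and 1.20 for intergenic sequence. For the divergent class, which covered 0.645% of X bases and 0.719% of other bases, it was 11.6 and 17.9. Within the 536 distal X peaks 437 (81.5%) lay in introns against 66.0% of other distal peaks (Fisher's exact test, adjusted over 2 classes, p = 6.155e-13). Within the 296 X promoter peaks 111 (37.5%) did, against 28.2% (Fisher's exact test, adjusted p = 0.00415). Intergenic sequence held 13.1% of distal X peaks against 30.6% (adjusted p = 1.457e-17, exact test). At promoters the intergenic difference was smaller, with 42.6% on the X against 49.1%, -6.51 points (adjusted p = 0.0473, exact test). The split into distal and promoter peaks was chosen after the data were seen.

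**Figure D2:**
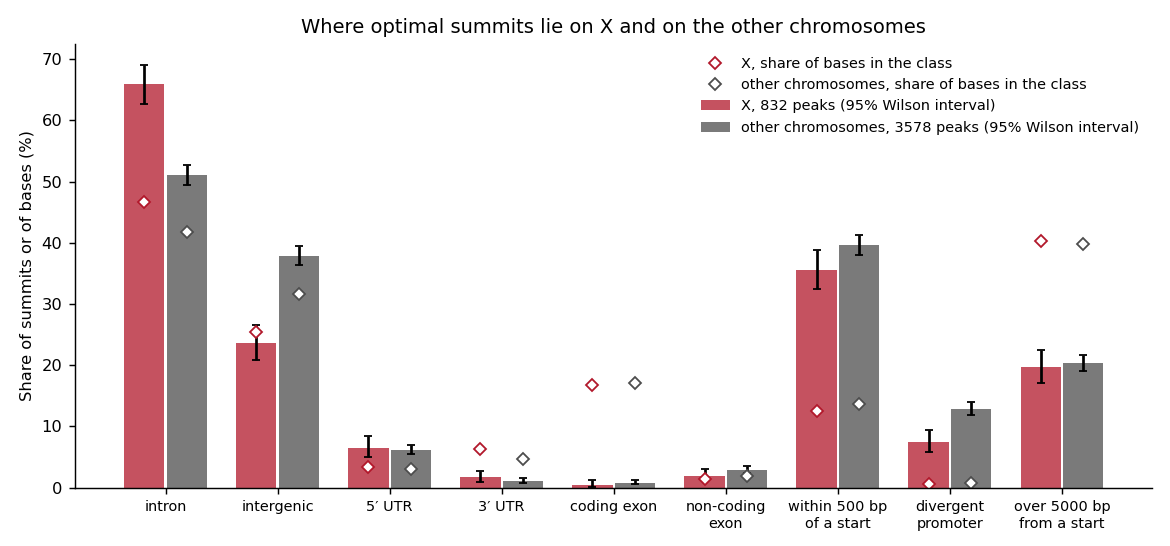
Share of summits (bars with 95% Wilson intervals) and share of bases (diamonds) in each class of sequence for the X (red) and the other chromosomes (grey), in percent. The X bar stands at 65.9% against 51.03% for introns, at 23.6% against 37.9% for intergenic sequence and at 7.45% against 12.9% for divergent promoters.

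The other classes did not pass. Promoter peaks, with a summit within 500 bp of any start site, numbered 296 on the X (35.6%) against 39.6% elsewhere, a difference of -4.00 points (Fisher's exact test, adjusted p = 0.0909). In the replicates the difference was -4.15, -4.57 and -4.51 points (-4.41 ± 0.227, SD, n = 3). The difference passed the same exact test with a 200 bp window (-7.60 points, adjusted p = 1.034e-05), with peaks found in all replicates (-6.59, 0.0129) and with the 2205 strongest peaks alone (-7.20, 0.0203). With a 1000 bp window it was -1.98 points and did not pass (adjusted p = 0.581, exact test). Summits over 5000 bp from any start site made up 19.7% on the X and 20.4% elsewhere, and 5′ UTRs held 6.49% and 6.20%. Coding exons held 4 X summits (0.481%) and 3′ UTRs 14 (1.68%), against 0.838% and 1.15%.

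Promoter summits on the X lay farther upstream than on the other chromosomes. Of the 296 X promoter summits 237 (80.1%) lay upstream of the nearest start site, against 78.7% elsewhere. The median distance of the upstream summits was 149 bp elsewhere and 52 bp longer on the X. In the replicates it was 198.5, 198 and 196 bp on the X against 138, 154 and 144 bp, a mean difference of 52.2 ± 8.25 bp (SD, n = 3, exact sign-flip test, two-sided p = 0.25, the smallest that 3 replicates allow). The X value was the larger in 3 of 3 replicates, and the sets of values did not overlap.

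The shares differed in opposite directions near to and farther from the start site. The 100 bp upstream of the start site held 12.8% of X promoter summits and 22.4% of the others, and in the replicates the X share was lower by a mean of -8.66 ± 1.07 points (SD, n = 3). From 300 to 200 bp upstream the order was the opposite, with 23.0% on the X and 13.9% elsewhere. The X share was also higher from 400 to 300 bp upstream, 12.2% against 8.47%. Between 200 and 100 bp upstream the shares were 26.0% and 29.0%. Divergent promoters, which were rarer on the X, are part of these counts, and their part in the distance was not tested.

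**Figure D3:**
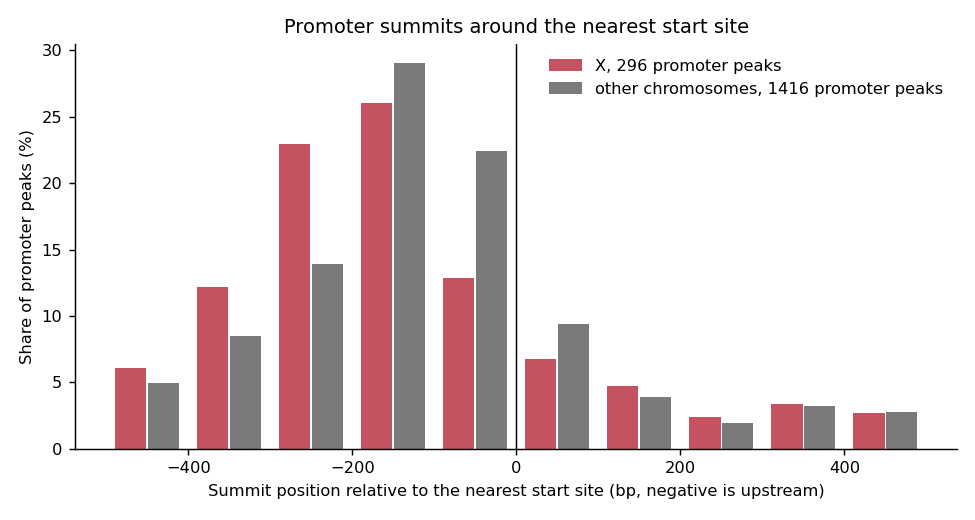
Share of promoter summits (y axis, percent) in bins of 100 bp around the nearest start site (x axis, bp, negative is upstream) for 296 X peaks (red) and 1416 other peaks (grey). The X bars are lower in the last 100 bp upstream, 12.8% against 22.4%, and higher from 300 to 200 bp upstream, 23.0% against 13.9%.

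Part of the X peaks lay close together. In all, 70 clusters of 3 or more summits with gaps of at most 5000 bp held 272 X peaks (32.7%). The median gap between X summits was 9532 bp, against 9795 bp on the large autosomal arms, and 22.9% of gaps were under 2000 bp against 19.8%. These are descriptions, with no test. The share in clusters is not given for the other chromosomes, so it is not shown to be particular to the X.

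The clusters with the most summits lay at Raf and Mnt. The one over and just beside Raf held 10 in 12752 bp (X, 2293734 to 2306486) with signals from 123 to 584. Of the 10 peaks 9 were in the top regions of all 3 replicates, and the exception, at 123, was in those of 1. Mnt (FBgn0023215), which encodes a Max-binding repressor, also held 10 summits, all in introns, in 20676 bp (X, 3673852 to 3694528). Its signals ran from 89.0 to 340, and with 3.35 summits per 10 kb over its 29.9 kb body it was more densely covered than Raf, with 2.27. The third large cluster, with 9 summits, lay over CG14434 and CG43736.

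Clusters with higher signals lay elsewhere. The exons of lncRNA:CR44619 (FBgn0265830) and lncRNA:Vinr and the sequence up to pira held 8 summits in 9596 bp (X, 12751330 to 12760926), with 1134, 908 and 635 as the highest signals. Of these the peak of 1134 (X, 12750863 to 12751606) had replicate values of 248, 548 and 303. LPCAT held 1 summit of a cluster of 7 in 10776 bp, with the rest between genes, and a cluster of 6 in 11696 bp had 5 in introns of Hr4 and 1 between genes.

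Counted over whole gene bodies, 342 of 2813 X genes held a summit and 29 held 5 or more. No such count is given off the X. The most lay in kirre (FBgn0028369, X, 2740384 to 3134532), an immunoglobulin superfamily gene of muscle founder cells, with 19 summits in 394 kb and signals from 87.8 to 452. The overlapping genes lncRNA:CR44357 (FBgn0265457) and CG1677 (FBgn0029941) held 18 and 15, and lncRNA:CR44999 (FBgn0266350), which overlaps Myc, held 14. Raf held 11 in 48.4 kb. The number per 10 kb was 0.482 in kirre and 2.27 in Raf, so the largest count came with a long gene.

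The lists of X genes below were described by how many members were bound, that is, had a summit within 500 bp of any start site. The background was 298 of 2196 X protein-coding genes (13.6%), with 14.0%, 13.9% and 13.3% in the replicates' top regions (13.7% ± 0.387, SD, n = 3). Off the X 14.1% of protein-coding genes were bound. The 16 lists held 124 distinct X genes, of which 26 (21.0%) were bound, and 5 lists had no bound member. No list was tested, and a peak near several start sites counted for each gene.

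Ribosomal protein genes of the cytoplasm were the list with the largest bound share. Of 14 X members 11 were bound (78.6%), with 11, 8 and 9 in the top regions of replicates 1, 2 and 3, and off the X 39 of 74 were (52.7%). The highest was RpS5a (FBgn0002590, X, 17148131 to 17148540), 72 bp from the start site, with a signal of 245 and replicate values of 62.9, 92.3 and 88.9. RpS10b (FBgn0285947, X, 19597960 to 19598108) had 214 with 81.8, 86.5 and 42.8, and RpS28b (FBgn0030136, X, 9554511 to 9554664) had 213 with 31.5, 92.7 and 78.6.

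Only these 3 of the bound ribosomal protein genes lay above the X median signal of 146, and the ranks ran from 172 to 793 of 832. The lowest was RpL35 at 91.0. RpL17 (FBgn0029897, X, 6744012 to 6744421) had 144 with 55.5, 61.7 and 20.9. RpL36 and RpL37-1 were unbound, with the nearest summits 7424 and 4300 bp away. RpS14a was unbound and its neighbour RpS14b bound at 100.9, and since these copies are near-identical the assignment between them is uncertain. Of the mitochondrial ribosomal protein genes 0 of 11 were bound on the X, also in each replicate, and 15 of 62 (24.2%) off the X. With 13.6% of X protein-coding genes bound, 11 members are too few to set this count apart from the background.

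The list of dosage compensation and X counting genes had no bound member. None of 8 members had a summit within 500 bp of a start site in the thresholded list, and the replicates' top regions gave 0, 0 and 2. With 13.6% of X protein-coding genes bound, 8 members are too few to set this count apart from the background. The nearest summit was 4470 bp from a start site of lncRNA:roX1 (FBgn0019661) and 1434 bp from that of lncRNA:roX2 (FBgn0019660), the RNAs of the MSL complex. It was 2802 bp from mof (FBgn0014340), the acetyltransferase of that complex. Sxl (FBgn0264270), the switch gene of sex determination, had 1 summit in its body at 194, and the nearest summit lay 1310 bp from a start site.

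Ecdysone genes were bound in 1 of 6 cases, and in 3, 1 and 1 in the top regions of replicates 1, 2 and 3. The bound member was usp (FBgn0003964, X, 2041261 to 2041670), the partner of the ecdysone receptor, with a signal of 169.8 in the 5′ UTR and replicate values of 28.4, 101.4 and 41.2. Hr4 had no summit at a start site and 8 in its body, from 99.6 to 737. The nearest summit to a start site of br (FBgn0283451), an early ecdysone response gene, was 14912 bp away, and phtm (1455 bp), Cyp18a1 (8433 bp) and Sgs4 (5609 bp) were unbound.

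Bound signalling genes were few in each list, and some unbound ones held summits in their body. For the Notch pathway 2 of 6 were bound, nej (FBgn0261617, X, 9685846 to 9686255), the CBP acetyltransferase gene, at 136 and peb (FBgn0003053, X, 4617003 to 4617412), a zinc finger gene, at 88.9, with 0, 1 and 2 bound in the replicates' top regions, while N (FBgn0004647) itself had 2 body summits at 336 and 119. For the Wingless and Hedgehog list 1 of 5 was bound, sgg (FBgn0003371, X, 2646330 to 2646593), the GSK3 kinase gene, at 471 with 111, 226 and 126 in the replicates. The integrin gene mew (FBgn0004456), which was placed in that list although it belongs to neither pathway, had 9 body summits from 96.6 to 350 and was unbound. In the receptor tyrosine kinase list 1 of 4 was bound, the phosphatase gene csw (FBgn0000382, X, 2094435 to 2094844) at 108, and Raf was unbound with its 11 body summits. None of 5 JAK/STAT genes and none of 5 genes of the achaete-scute region was bound or held a body summit.

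Chromatin and neuronal genes included strong peaks. In the chromatin list 4 of 12 were bound, ph-p at 889, nej at 136, ph-d (FBgn0004860, X, 2121988 to 2122397) at 128 and HP1b (FBgn0030082, X, 9080943 to 9081352), a heterochromatin protein 1 gene, at 107. ph-d is the tandem copy of ph-p, so reads in similar stretches of the pair may not be assigned with certainty. In the neuronal list 2 of 9 were bound, elav at 540.0 and the cAMP phosphodiesterase gene dnc (FBgn0000479, X, 3294892 to 3295104) at 359, with 72.5, 185 and 100.2 in the replicates. norpA was unbound with 2 body summits, and per, rut, para, Sh, shi and Appl had neither.

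Housekeeping genes had the next largest bound share after ribosomal proteins, and the lists after them gave few bound members. Of 7 housekeeping genes 3 were bound (42.9%, with 3, 2 and 4 in the replicates), Gapdh2 at 782, the myosin regulatory light chain gene sqh (FBgn0003514, X, 6224094 to 6224503) at 178 and Act5C (FBgn0000042, X, 5900189 to 5900598), a cytoplasmic actin gene, at 110.0. Among 16 patterning transcription factor genes 1 was bound (peb, 88.9), and Bx, a LIM-only gene, held 5 body summits of up to 249. Of 7 genes for growth, replication and the cell cycle 1 was bound (fzr, FBgn0262699, X, 4679801 to 4680210, signal 123), and Myc held 3 body summits of 389, 159 and 125. Eye pigment and trafficking genes were bound in 1 of 6 cases, the white gene w (FBgn0003996, X, 2796645 to 2797054) at 92.6 in an intron of kirre, with no listed region in replicate 1. None of 9 eggshell and yolk genes was bound.

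X summits were rich in A and T, with a smaller rise over their flanks than elsewhere. The windows at X summits, 50 bp to either side, held 65.8% A and T (SD over peaks 8.80), against 56.0% in the flanks, windows of the same length centred 300 bp to either side. The other peaks held 66.6% and 54.7%. The rise was thus 9.76 percentage points on the X and 11.9 elsewhere, while all bases of the X held 57.5% and those of the other arms 57.9%. In the replicates' top regions the rise was 7.94, 9.23 and 9.49 points on the X and 9.34, 11.6 and 11.9 elsewhere. The X minus other difference was -1.40, -2.41 and -2.45 (mean -2.09 ± 0.598, SD, n = 3, exact sign-flip test, two-sided p = 0.25, the smallest possible), below 0 in 3 of 3.

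Both the summit and the flank took part in that difference. At summits the X minus other difference in the replicates was -0.525, -0.791 and -1.18 points (-0.831 ± 0.327, SD, n = 3). The flanks of X peaks held more A and T than those of other peaks, 56.0% against 54.7%. The rise was 9.52 points at X promoter peaks and 9.90 at X distal peaks, against 10.4 and 12.9 elsewhere.

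**Figure D4:**
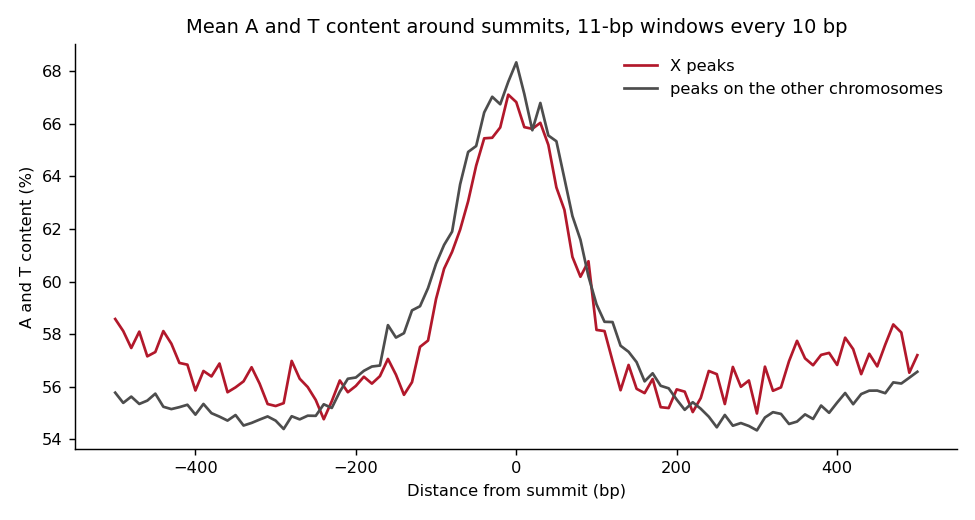
Mean A and T content (y axis, percent, windows of 11 bp) by distance from the summit (x axis, bp) for X peaks (red) and other peaks (grey). At the summit the X line reaches 66.8% and the other line 68.3%, and 300 bp to the left they are at 55.3% and 54.7%.

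The words that marked summits on the other chromosomes also rose at X summits. The 10 words of 6 bases with the largest rise off the X were found without the X peaks, and all 10 were more frequent at X summits than in X flanks in each replicate. TTAAAA was in 29.7% of X summit windows and 14.2% of X flank windows, against 33.4% and 12.3% elsewhere, and its X rise in the replicates was 13.5, 14.0 and 17.2 points. AAATAT was in 30.8% and 15.3% on the X, ATTTTA in 25.8% and 11.1%, and ATTTAA in 24.9% and 10.6%. At least 1 of the 10 was in 79.9% of X summit windows and 83.0% of the others, and in 56.5% of X flanks and 53.7% of other flanks. The mean rise of the 10 words in the replicates was 11.6 ± 0.878 points on the X (SD, n = 3). In the thresholded list all 10 rose less on the X than elsewhere. TTAAAA rose by 15.5 points on the X and 21.2 elsewhere, and AAAATA by 9.68 and 19.7. The words were chosen for their rise off the X, so the 2 sides are not compared evenly. All 10 hold only A and T, and whether they rose beyond the A and T content of summits was not tested.

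No word separated X summits from other summits. Of all words of 6 bases, with both strands merged, none (0%) passed two-sided Fisher's exact tests with Benjamini-Hochberg adjustment, over 832 and 3578 windows, with a lowest adjusted p of 0.631. At an unadjusted p under 0.05 there were 117 words (5.63%). The word with the lowest p was AAATTA, in 20.4% of X and 26.3% of other summit windows.

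In the flanks 29 words (1.39%) passed the same test, 23 more frequent on the X and 6 less frequent, over 1664 and 7156 windows. AAAAAA had the largest difference, with 23.6% of X and 17.5% of other flank windows (Fisher's exact test, adjusted p = 2.875e-05), then AAAATA with 22.4% and 17.0%. The dinucleotide repeats ACACAC (13.7% against 10.1%) and CACACA (15.3% against 11.9%) were also more frequent in X flanks, as was TACATA (10.2% against 6.90%). AAAAAA was in 28.7% of X and 28.5% of other summit windows. With flank windows on 1 side only, which gives flanks the number of windows that summits have, 1 word passed on the left and 0 on the right. In intronic distal peaks alone 0 passed. The 1-sided flanks and the intronic distal set were chosen after the data were seen. With peaks shared by the top regions of the other replicates, 13, 10 and 16 words passed without replicate 1, 2 and 3.

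**Figure D5:**
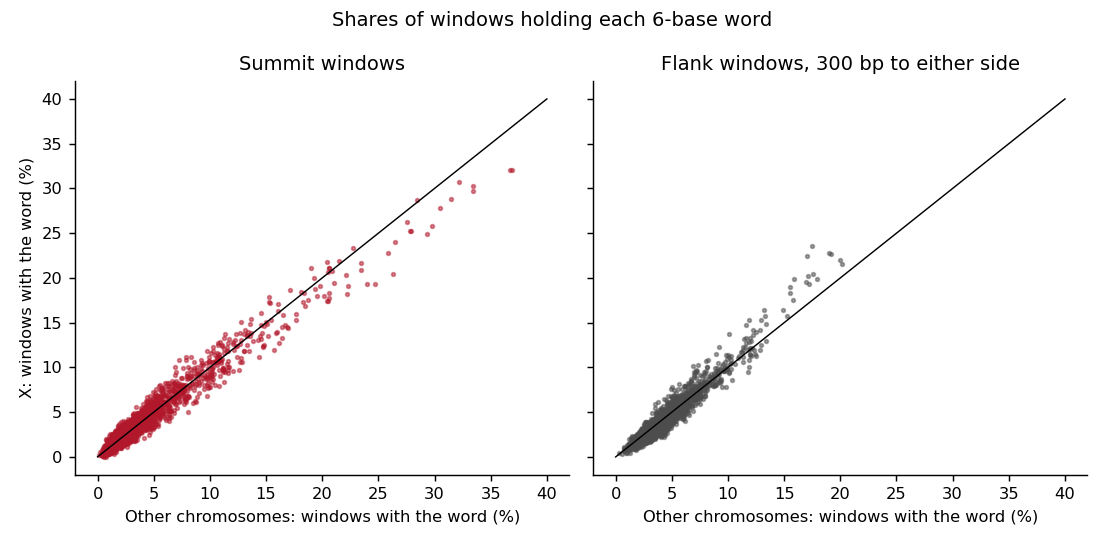
How often each 6-base word was found in windows on the X (y axis, percent) and on the other chromosomes (x axis, percent), at summits (left) and in flanks (right), with the line of equal shares. The most frequent summit words lie below the line, with AAAATA at 32.1% against 36.7%, and the most frequent flank words lie above it, with AAAATA at 22.4% against 17.0%.

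Known motifs gave no difference between X and other summits that passed. Of 20 consensus motifs, searched on both strands, none (0%) passed two-sided Fisher's exact tests with Benjamini-Hochberg adjustment over the 20, and 1 had an unadjusted p under 0.05. That was the TATA box word TATAAA, in 19.1% of X and 22.3% of other summit windows, and in 10.98% of X tiles (Fisher's exact test, p = 0.0497, adjusted p = 0.565). GAGAGA is the repeat bound by GAGA factor and CLAMP and the core of the recognition element of the MSL complex. It was in 36 X summit windows (4.33%), against 4.30% elsewhere and 3.80% of X tiles. In flanks it was in 7.81% of X and 6.29% of other windows and did not pass (Fisher's exact test, adjusted p = 0.14). CACACA was in 7.21% of X and 5.79% of other summit windows, in 15.3% of X flanks and in 9.19% of X tiles. The DREF site TATCGATA was in 5 X summit windows (0.601%, against 1.01% elsewhere and 0.350% of X tiles) and the Myc and Max word CACGTG in 5 (0.601%, against 0.699% and 1.14%). GATA factor words (AGATAA) were in 6.73% and 8.11% and homeodomain words (TAATTA) in 7.81% and 9.95% of X and other summit windows.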

How the data were processed

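The authors deposited peak lists, and read counts were not analysed here, so depth per sample is unknown and sets no interval. Per the deposited text notes, a control went into the calling of every replicate's list, and the thresholded list was derived from the replicate and pooled lists by the irreproducible discovery rate (IDR), a measure of repeatability between ranked lists. The deposited signal value of each peak is the authors' peak caller's and was compared only within a list. Which aligner and caller, which versions and which IDR threshold is not given in the sources used here. Chromatin was sheared by sonication to between 200 and 800 bp, per the labels.

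Peaks were taken as deposited in dm6, counted from 1, and a summit was the peak's start plus its deposited offset. The dm3 list gave an X share of 19.1% and entered nothing else. Genes came from the Ensembl annotation of BDGP6 (release 115) without transposable elements, and sequence from the RefSeq genome of that assembly. Each replicate's 4410 highest-signal regions, the length of the thresholded list, gave the replicate values, with an overlap of 1 bp counted as shared. Placement classes, 2080 words and 20 motifs were compared between X and other peaks by Fisher's exact test (two-sided), adjusted by Benjamini-Hochberg with a threshold of 0.05. The signal ratio, the upstream distance and the A and T content had an exact sign-flip test over 3 replicates. Other replicate values are given as mean and SD without a test. The tests were checked on simulated data. Python 3.11.15, numpy 2.4.6, scipy 1.17.1, pandas 2.3.3 and matplotlib 3.10.9 were used.

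The text names the 25 strongest X peaks, the 5 strongest over 5000 bp from a start site, up to 4 bound members of each list, the 5 X genes with most summits in their body, and up to 10 words that passed. Other members, clusters and motifs were named after their values were seen. The members and lists were chosen with earlier results of these data known. In the lists e(y)1 was matched as Taf9 and dec-1 as dec, and Vha16-2 was left out because it is not on the X. The closing section gives the effect of other windows, stricter peak sets, the large autosomal arms alone as the comparison, and leaving out each replicate.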

Additional observations from a re-analysis of the deposited data

How the results depend on the processing

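The excess of X peaks in introns and their deficit in intergenic sequence and at divergent promoters kept their direction under each alternative and passed under each that gave a test, which leaving out a replicate did not. The number of placement classes that passed was 3 and became 5 with a 200 bp start site window and 6 with peaks found in all replicates. The promoter difference, -4.00 points, passed with a 200 bp window (-7.60), with peaks found in all replicates (-6.59) and with the 2205 strongest peaks (-7.20), but not with a 1000 bp window (-1.98). With only the large autosomal arms as the comparison it was -3.86 points, 3 classes passed and 30 flank words passed. The words that passed at summits numbered 0, and 1 with windows of 100 bp to either side and 1 in the top regions of replicate 2. In flanks 29 words passed, and 3 with windows of 25 bp to either side, 93 with 100 bp to either side, 6 with the 2205 strongest peaks, 1 on the left side and 0 on the right side, 0 in intronic distal peaks, and 13 and 16 in the top regions of replicates 1 and 3. With peaks shared by the other replicates when 1 was left out, 10 to 16 words passed. Fewer windows were tested in the smaller sets, and the cause of the other changes was not tested. The mean rise of the 10 words at X summits, 12.8 points, was 6.88 in the shorter and 17.9 in the longer windows. Bound X genes numbered 298, and 164 within 200 bp, 193 with peaks found in all replicates and 160 with the 2205 strongest peaks, since each of these keeps fewer summits. The number was 380 within 1000 bp and 210 to 228 with 1 replicate left out. No placement difference that passed in any setting changed sign. Among those that did not pass, summits over 5000 bp from any start site went from -0.691 to 1.29 points with the 2205 strongest peaks. The log2 signal ratio went from -0.02 to 0.01 without replicate 1. Leaving out each replicate gave X minus other differences of 14.4 to 15.6 points for introns, -15.4 to -15.2 for intergenic sequence, -5.56 to -5.43 for divergent promoters and -4.54 to -4.33 for promoters. No paired analysis was possible because the samples form 1 group, so no groups share replicate numbers; X and other peaks were compared within each replicate. With 3 replicates the smallest exact p is 0.25, and without read counts the depth behind a peak is unknown.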

Other observations

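The X peaks were spread unevenly along the chromosome. Counted in bins of 1 Mb, the 6 to 7 Mb bin held 64 summits and 195 start sites, and the 3 to 4 Mb bin, which holds Mnt, Tlk and part of kirre, held 60 summits and 112 start sites. The 20 to 21 Mb bin held 15 summits and 136 start sites, and the 22 to 23 Mb bin 3 summits and 68 start sites. The longest gap between neighbouring summits was 849563 bp (X, 21630003 to 22479566), and the next such gaps were 386033 bp (X, 20656813 to 21042846) and 342458 bp (X, 22491248 to 22833706), all in the proximal part of the X. Whether reads can be placed uniquely in these gaps was not tested.

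Among peaks found in all replicates the X share differed from that of the other chromosomes in 3′ UTRs and non-coding exons, by 1.23 points (Fisher's exact test, adjusted p = 0.0162) and by -1.80 points (adjusted p = 0.0393), while among all peaks neither passed (adjusted p = 0.351 and 0.281).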
